A study of Sus scrofa with 60 samples.

Results

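In the liver of the developing pig, 6 genes with 9 probe sets were followed, namely PSP-II, TNNI2, CST6, ISYNA1, S100G and FNTA. They are all the probe sets whose single gene symbol is one of these, that is 9 of 23999 transcript probe sets and 6 of 6765 named genes on the array. The genes were picked because transcripts that are known mainly from other tissues read high in fetal liver and differed among stages or animals. Their stage values are therefore given as a description, with no test. The samples were livers of German Landrace offspring whose mothers, all gilts, received a diet of adequate protein content (AP) during gestation. There were 15 fetuses at 94 days post conception (dpc), and 15, 14 and 16 animals at 1, 28 and 188 days post natum (dpn). All animals shared the AP diet group and breed, so that stage is the only labelled difference. The fetuses came from another experiment than the born animals. Sib pairs were used at each stage, the pairs of 94 dpc and 1 dpn differed in weight by selection, and the pigs of 28 and 188 dpn had gone without feed overnight. Stage therefore cannot be told apart from experiment between 1 dpn and 94 dpc, nor from fasting between 28 and 1 dpn. The labels give no litter, sex or weight, and p-values treat the animals as independent.

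None of the 6 genes is a classical liver marker. PSP-II encodes a spermadhesin, one of the main proteins of boar seminal plasma, which pairs with its relative PSP-I and binds to the sperm surface. TNNI2 encodes the inhibitory troponin of fast skeletal muscle, which holds the thin filament off until calcium binds troponin C. CST6 encodes cystatin E/M, a secreted inhibitor of legumain and cysteine cathepsins known from skin. ISYNA1 encodes the enzyme that makes inositol phosphate from glucose phosphate, the first step of inositol synthesis. S100G encodes a small vitamin D dependent calcium-binding protein of the intestine, uterus and placenta. FNTA encodes the alpha subunit that protein farnesyltransferase shares with a related prenyl transferase, and these enzymes attach lipid anchors to RAS proteins, lamins and other substrates. Fetal liver is also the main site of blood cell formation, which leaves the organ around birth, so that bulk fetal liver holds many blood cell precursors beside hepatocytes.

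Each probe set was read as an intensity, and levels are given as log2(intensity + 16). The added 16 understates the difference of dim probe sets. Background was taken from 17 Tag control probe sets, whose highest stage mean was 5.86, 6.29, 5.73 and 5.84 at 94 dpc and at 1, 28 and 188 dpn. A stage mean at or below that value is called near background, and a fold against it is a lower limit, computed from the bright stage's mean against that Tag value. All 10 hepatocyte markers lay above background at every stage. The 8 erythroid markers all fell between 94 dpc and 1 dpn, with a median difference of -2.62 on the log2 scale, and their summed intensity had a median of 3003 (range 1442 to 5201) at 1 dpn and 26670 (range 10370 to 45640) at 94 dpc. The 7 neutrophil and the 3 megakaryocyte markers fell as well, and the part of blood cells in the course of the 6 genes was not tested. The actin 3′ to 5′ ratio, a measure of RNA integrity in which a higher value means more loss of 5′ sequence, averaged 2.29, 1.76, 3.54 and 4.01 on the log2 scale at the stages in order. The same ratio for GAPDH averaged 0.99, 0.38, 0.77 and 0.68 and was highest at 94 dpc, so the 2 controls ordered the stages differently. In bulk liver, fewer cells of a type and less RNA per cell cannot be told apart.

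The 6 genes fell into 3 patterns over development. PSP-II, TNNI2 and CST6 were high at 94 dpc, and in each of them no fetus overlapped with any animal after birth, although part of the newborns retained some TNNI2. ISYNA1 was lower at each later stage in turn, with the bulk of the difference before 28 dpn. S100G and FNTA, each read by the probe set with the highest mean over all arrays, were still high at 1 dpn, and S100G then reached background by 28 dpn whereas FNTA remained well above it at 188 dpn. The named pattern of high levels in the fetus thus describes 4 genes in full, while for S100G and FNTA the newborns overlapped with the fetuses.

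Over all probe sets tested, limma called 41.1% lower and 23.9% higher at the later stage in the period from 94 dpc to 1 dpn (I), 39% lower and 28.5% higher from 1 to 28 dpn (II), and 24.1% lower and 15.5% higher from 28 to 188 dpn (III). Of the 9 probe sets, 8, 5 and 3 passed the filter on dim probe sets in periods I to III. In period I, 4 of the 9 were lower at 1 dpn without overlap, and 5.53% of all 12771 probe sets tested had this pattern. In period II, 4 of the 9 were lower at 28 dpn without overlap, beside 6.83% of 12976. In period III, 1 of the 9 was lower at 188 dpn without overlap, beside 0.756% of 12568. The members were chosen on these values, so that nothing is read from the counts.

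**Figure D1:**
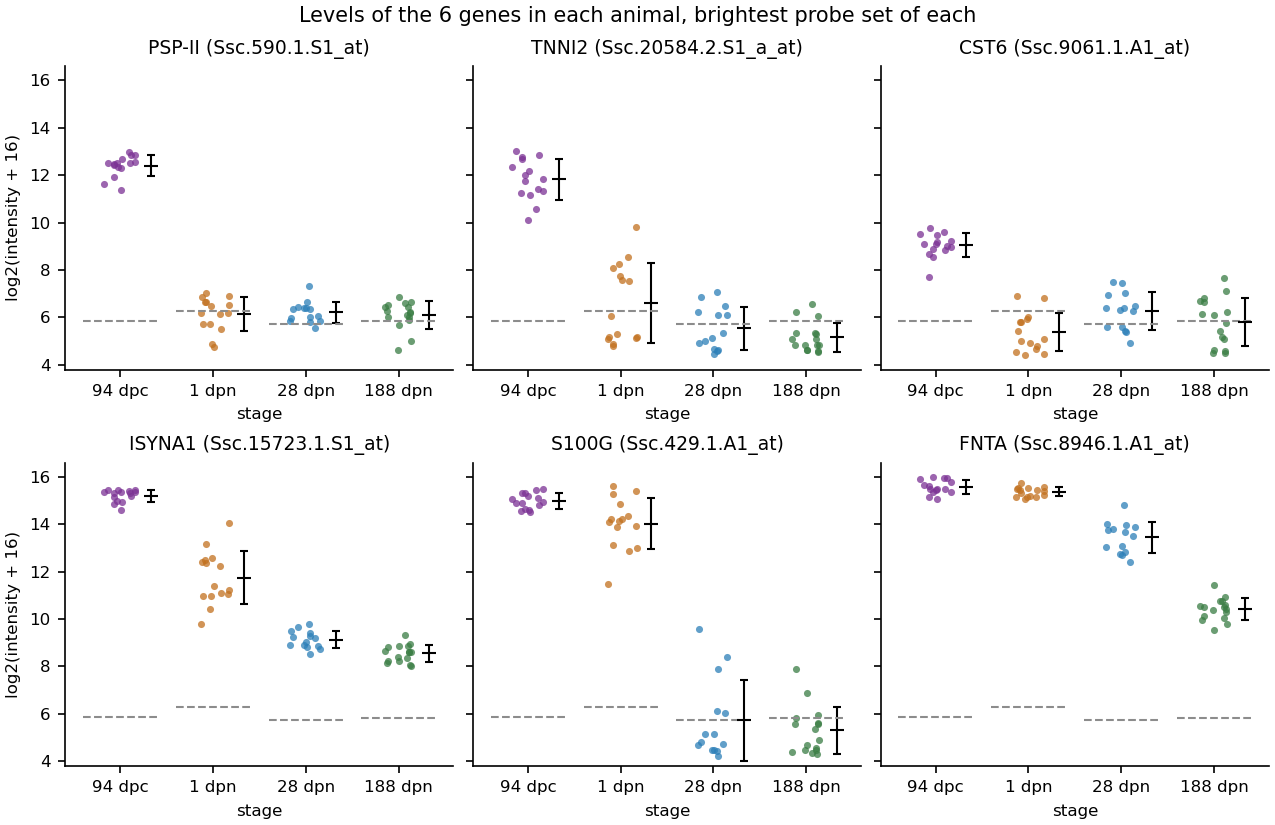
Level of each of the 6 genes by its probe set with the highest mean, as log2(intensity + 16), in every animal at 94 dpc (15 animals) and at 1, 28 and 188 dpn (15, 14 and 16 animals). Points are animals, black bars are the mean and SD, and dashed grey lines are the highest Tag control mean of the stage. PSP-II, TNNI2 and CST6 lie above 7.70 in every fetus and below that level after birth except for TNNI2 in some newborns, whereas S100G and FNTA remain high at 1 dpn.

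PSP-II was high in every fetal liver and dim after birth, with a mean near background at 1 dpn and slightly above the Tag level at 28 and 188 dpn. Its probe set read 2611, 5795 and 8073 (lowest, median and highest intensity) in the 15 fetuses. At 1 dpn it read 10.9, 57.8 and 116, at 28 dpn 30.8, 57.6 and 143, and at 188 dpn 9.06, 58.3 and 101. The lowest fetus was thus far above the highest born animal, and no newborn exceeded the median of its own array. The mean level was 6.15 ± 0.70 at 1 dpn and 12.40 ± 0.45 at 94 dpc (SD, n = 15 each), a difference of -6.25 ± 0.21 (SE) that corresponds to at least 69.2-fold. The later stages stayed level, with differences of 0.07 ± 0.21 between 28 and 1 dpn and -0.11 ± 0.19 between 188 and 28 dpn. Among fetuses PSP-II varied 3.09-fold between the highest and lowest animal.

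PSP-II lies in a cluster of spermadhesin genes, and in the Sscrofa11.1 annotation its adjacent genes are AQN-1 on one side and PSP-I on the other, with AWN directly beyond AQN-1. PSP-I is the partner of PSP-II in seminal plasma, and AQN-1 and AWN are sperm-coating spermadhesins with affinity for carbohydrates of the egg coat. All 3 neighbours were dim and none passed the filter. AWN read 2.02, 30.4 and 92.0 at 1 dpn and 19.3, 100.7 and 279 at 94 dpc, with means of 5.25 ± 0.84 at 1 dpn and 6.84 ± 0.76 at 94 dpc (SD, n = 15 each), and 14 of 15 fetuses exceeded the Tag level. PSP-I averaged 4.73 ± 0.60 at 1 dpn and 6.22 ± 0.66 at 94 dpc. Without the filter, limma called PSP-I (-1.49 ± 0.22, adjusted p = 1.8e-06), AWN (-1.59 ± 0.28, adjusted p = 2.5e-05) and AQN-1 (-0.75 ± 0.26, adjusted p = 0.022) lower at 1 dpn than at 94 dpc.

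The neighbours therefore moved in the direction of PSP-II at the dim end of the scale, where the 1 dpn means of all 3 lay below the Tag level and only the direction can be read. Of the 8 seminal plasma genes on the array, 4 were lower at 1 dpn and none higher without the filter, with a median difference of -0.58, beside 25.5% of all 23999 probe sets lower and 14.3% higher. The fourth was CRISP2, a sperm protein of another family, at -0.78 ± 0.26 (limma, adjusted p = 0.017). BSP1, CRISP1, ACPP and LCN5 differed by 0.12, -0.07, -0.41 and 0.21. Spermadhesins resemble each other in sequence, and whether the probes of the neighbours also read PSP-II transcripts was not tested. Beyond the cluster, the next genes on the array are DMBT1, which encodes a mucosal defence protein, at 0.85 ± 0.26 (adjusted p = 0.0043), and ACADSB, which encodes a mitochondrial acyl-CoA dehydrogenase, at 1.03 ± 0.10 (adjusted p = 1.1e-10), both higher at 1 dpn than at 94 dpc by limma.

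**Figure D2:**
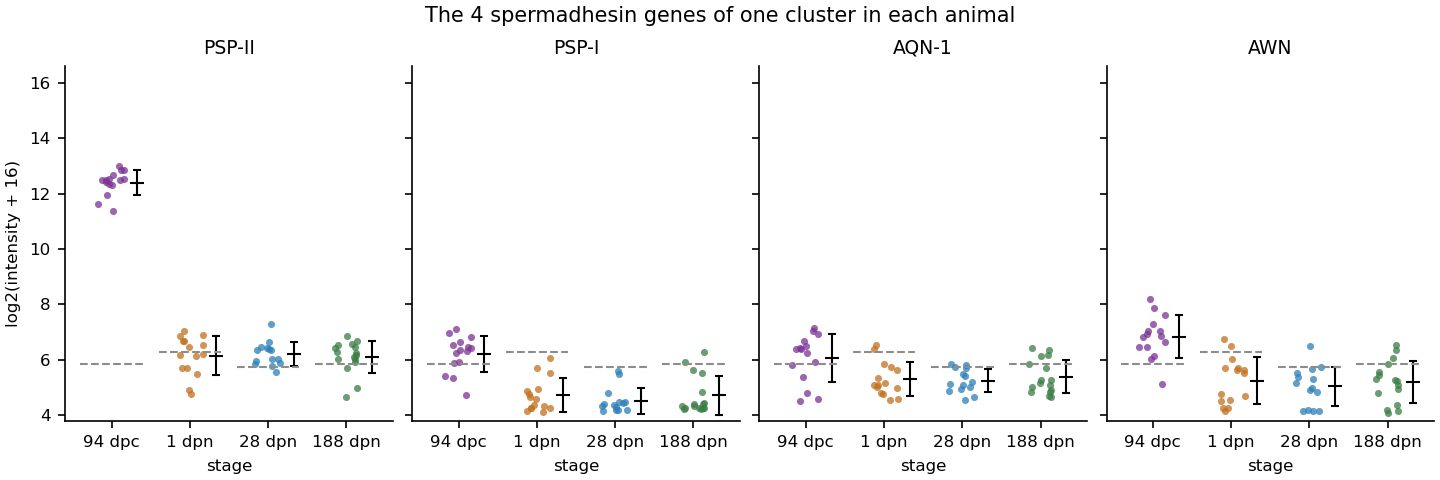
Level of PSP-II and of its cluster neighbours PSP-I, AQN-1 and AWN, as log2(intensity + 16), in every animal by stage, with mean and SD in black and the highest Tag control mean as a dashed line. The fetal means are 12.40 for PSP-II and 6.22, 6.06 and 6.84 for PSP-I, AQN-1 and AWN, close to the dashed line at 5.86.

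TNNI2 was high in all fetuses, ranged from background to 877 among newborns and was near background later. The probe set read 1077, 3661 and 8390 at 94 dpc (lowest, median, highest), and the fetuses differed 7.79-fold among themselves. At 1 dpn it read 11.7, 49.9 and 877. At 28 dpn it read 5.86, 22.2 and 120, and at 188 dpn 7.26, 15.0 and 79.7. In the newborns 8 animals lay at 11.7 to 49.9, all below the Tag level, and 7 animals at 168 to 877, without values in between. These 7 alone exceeded the median of their arrays. Whether the newborns form 2 groups was not tested. Even the highest newborn remained below the lowest fetus. The mean was 6.61 ± 1.67 at 1 dpn and 11.82 ± 0.86 at 94 dpc (SD, n = 15 each), a difference of -5.21 ± 0.46 (SE) or 37.0-fold. The difference between 28 and 1 dpn was -1.07 ± 0.48 with overlap, and both 28 and 188 dpn were near background.

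Other genes of skeletal muscle contraction were mostly dim at all stages, and those called between 1 dpn and 94 dpc went both ways. Of 43 genes on the list, 31 were on the array, and 10, 18, 16 and 16 of them were near background at the 4 stages in order. Their summed intensity had a median of 2946 (range 2066 to 3756) at 1 dpn and 3393 (range 2779 to 3988) at 94 dpc. Among the direct partners of TNNI2 in the fast troponin complex, TNNT3 averaged 5.96 ± 0.78 at 1 dpn and 5.09 ± 0.74 at 94 dpc, both near background, and TNNC2 averaged 4.97 ± 0.79 at 1 dpn and 6.18 ± 0.82 at 94 dpc. The fast myosin genes MYH2, at 4.60, and MYLPF, at 4.91, were near background in fetal liver, and MYL1, at 5.88, was hardly above the Tag level of 5.86.

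In period I, 5 muscle genes passed the filter, and 2 rose and 3 fell by limma, with a median of -0.76, while 29.8% of 5206 named genes rose and 35.6% fell with a median of -0.06. TNNI1, the slow muscle counterpart of TNNI2, fell by 2.17 ± 0.37 (adjusted p = 5.5e-06), to a near-background 5.30 ± 0.66 at 1 dpn, against 7.47 ± 1.37 at 94 dpc. CKM, the muscle creatine kinase, fell by 1.56 ± 0.16 (adjusted p = 4.6e-10), to 7.13 ± 0.51 at 1 dpn, against 8.69 ± 0.39 at 94 dpc. Both TNNI1 and CKM passed the filter only through 94 dpc, the stage where they were higher, which favoured a fall. The count of 3 that fell and the median thus depend in part on the filter. ACTN2, a Z-disc actinin, rose by 0.98 ± 0.20 (adjusted p = 9.4e-05), and TPM2, a tropomyosin also found in smooth muscle, by 0.32 ± 0.13 (adjusted p = 0.036). TPM2 rose again at 28 dpn over 1 dpn (1.36 ± 0.18, adjusted p = 9.7e-08), and TCAP, the titin cap, rose at 188 over 28 dpn (0.33 ± 0.08, adjusted p = 0.0024). Of the 4 muscle genes that passed the filter in each of periods II and III, no other was called. Without the filter, 5 of the 31 were called higher and 6 lower at 1 dpn than at 94 dpc. Of all 23999 probe sets, 14.3% were higher and 25.5% lower. Among the lower muscle genes TNNC1, the troponin C of slow and cardiac muscle, differed by -1.38 ± 0.32 (adjusted p = 0.00071) and TNNC2 by -1.21 ± 0.28 (adjusted p = 0.00077). Among the higher ones were TNNT3 (0.87 ± 0.27, adjusted p = 0.0089) and MYOD1 (0.97 ± 0.24, adjusted p = 0.0015), both near background at both stages. In period II without the filter, TPM2 was still the only one higher and 4 of the 31 were lower at 28 dpn, beside 15.6% of all probe sets higher and 30.7% lower. The lower ones were CKM (-1.02 ± 0.19, adjusted p = 3.8e-05), the slow myosin MYH7 (-0.70 ± 0.13, adjusted p = 6.6e-05), the myosin-binding MYBPC1 (-0.75 ± 0.23, adjusted p = 0.0092) and titin, TTN (-0.52 ± 0.21, adjusted p = 0.038). In period III without the filter 1 was higher and none lower, beside 7.21% and 12%. At 94 dpc the level of TNNI2 and the mean of the muscle list had no called relation from fetus to fetus (Pearson's r = 0.224, permutation p = 0.42; Spearman's rho = 0.393, permutation p = 0.15; n = 15; adjusted p = 0.74 and 0.54).

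**Figure D3:**
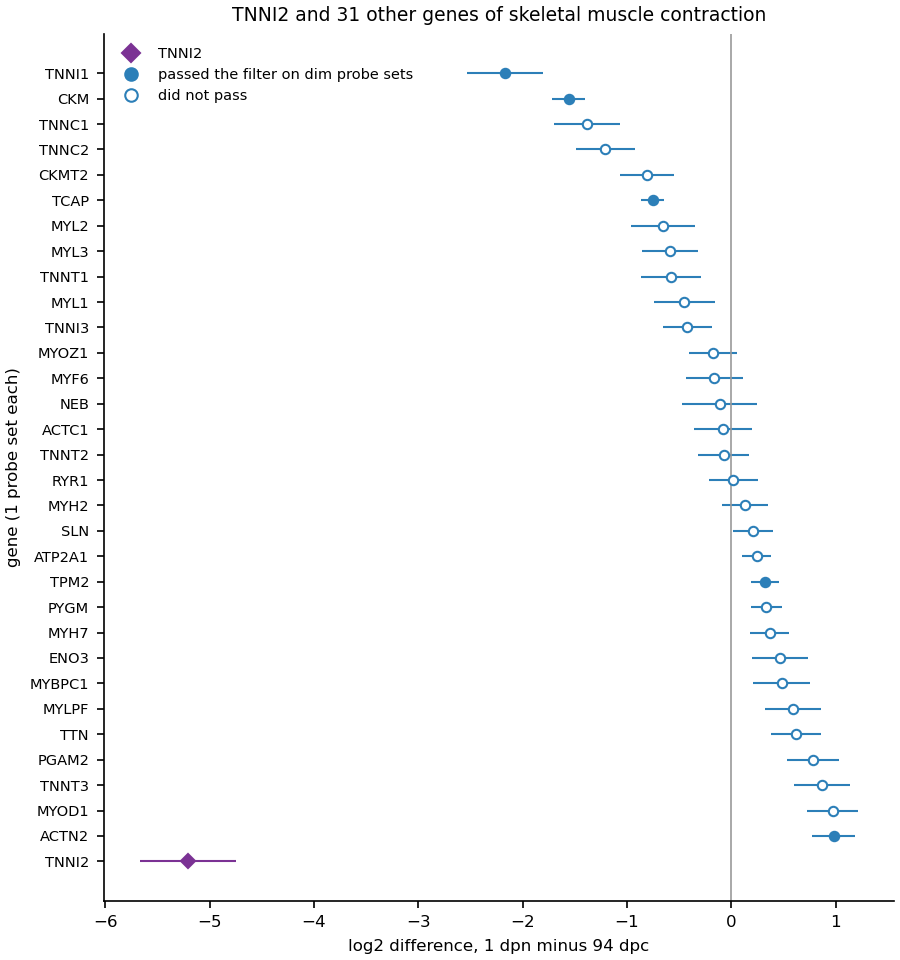
Difference of the mean log2 level, 1 dpn minus 94 dpc, with its SE, for TNNI2 (diamond) and 31 other genes of skeletal muscle contraction (circles, filled where the probe set passed the filter). TNNI2 lies at -5.21, apart from the list, in which TNNI1 has the most negative difference (-2.17) and ACTN2 the most positive (0.98).

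The neighbours of TNNI2 on the Sscrofa11.1 annotation took other courses. TNNT3, 3 genes further on, was near background at 94 dpc and 1 dpn as above. IGF2, the fetal growth factor, lies beyond TNNT3 and was lower at 1 dpn than at 94 dpc by 0.61 ± 0.09 (limma, adjusted p = 1.2e-06), and far lower at 28 than at 1 dpn, with a difference of -3.65 ± 0.14 (adjusted p = 6.7e-20). CTSD, a lysosomal protease gene on the other side, was higher at 1 dpn than at 94 dpc by 0.90 ± 0.08 (adjusted p = 5.7e-11). No tested neighbour had a difference in period I near that of TNNI2.

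CST6 separated all fetuses from all born animals, with a margin that rested on 1 fetus. Its probe set read 192, 530 and 857 at 94 dpc and 5.48, 17.7 and 105 at 1 dpn (lowest, median, highest). At 28 dpn it read 14.1, 65.7 and 162, and at 188 dpn 6.45, 45.3 and 184. The single fetus at 192 lay close to the highest pig of 188 dpn, whereas the next fetus read 364. The mean was 5.38 ± 0.81 at 1 dpn and 9.04 ± 0.50 at 94 dpc (SD, n = 15 each), a difference of -3.66 ± 0.24 (SE) or at least 6.76-fold. After birth the stages overlapped. The level at 28 dpn was 0.89 ± 0.29 above that at 1 dpn, where the mean was near background, so no fold is given, and that at 188 dpn differed from 28 dpn by -0.45 ± 0.32.

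The cystatins and the cysteine proteases they block showed no common direction in period I. Of 14 listed genes on the array, 12 were tested in period I, and 4 rose and 4 fell, with a median of 0.01, beside 29.8% and 35.6% of named genes. CTSZ and CTSH, both lysosomal cathepsins, rose by 0.94 ± 0.12 (adjusted p = 2.1e-08) and 0.63 ± 0.09 (adjusted p = 1.4e-07). KNG1, a kininogen with cystatin domains that the liver secretes, fell by 0.73 ± 0.12 (adjusted p = 4.1e-06), and cathepsin CTSS by 0.31 ± 0.13 (adjusted p = 0.033). In period II, 8 of 13 rose and 1 fell, with a median of 0.55, beside 32.2% rising and 35.7% falling of 5335 named genes. The risers were led by CTSZ (1.69 ± 0.13, adjusted p = 1.1e-12) and CTSS (1.41 ± 0.12, adjusted p = 2.4e-11), and the 1 that fell was AHSG, the fetuin A of plasma (-0.75 ± 0.09, adjusted p = 6.4e-09). In period III, 4 of 13 rose and 3 fell (median -0.06), beside 17.5% rising and 28.3% falling of 5255 named genes. Here CTSH (0.49 ± 0.12, adjusted p = 0.0018) and CST3, the widely secreted cystatin C (0.43 ± 0.07, adjusted p = 1.6e-05), rose, and CTSS (-0.62 ± 0.12, adjusted p = 8.1e-05) and CTSC (-0.43 ± 0.09, adjusted p = 0.00043) fell. CST6 thus differed in period I, in a list whose tested members went both ways. That period spans late gestation as well as birth, with no stage sampled between, so the difference cannot be placed at birth.

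ISYNA1 was lower at each later stage. The probe set read 24709, 40459 and 44504 at 94 dpc and 872, 2669 and 17072 at 1 dpn (lowest, median, highest). It read 347, 533 and 866 at 28 dpn and 242, 370 and 621 at 188 dpn. The first 3 stages did not overlap, although the highest newborn (17072) lay well above the next (9279 and 6038), and the last 2 stages did. Fetuses differed only 1.80-fold among themselves, newborns 19.6-fold, and the later stages 2.50-fold and 2.56-fold, so that the spread was widest 1 day after birth. The mean was 11.75 ± 1.13 at 1 dpn and 15.20 ± 0.25 at 94 dpc (SD, n = 15 each), a difference of -3.46 ± 0.29 (SE) or 11.0-fold. At 28 dpn the mean was 9.12 ± 0.37 (n = 14), 2.62 ± 0.30 below 1 dpn, and at 188 dpn 8.54 ± 0.36 (n = 16), 0.58 ± 0.14 below 28 dpn. Between 188 dpn and 94 dpc the levels differed 101-fold.

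The rest of the inositol list changed less and in both directions. In period I, 14 of 16 genes on the array were tested, and 4 rose and 7 fell with a median of -0.17, beside 29.8% rising and 35.6% falling of all named genes tested. MIOX, the enzyme that breaks inositol down, rose by 1.56 ± 0.17 (adjusted p = 2e-09), to 11.17 ± 0.65 at 1 dpn, against 9.61 ± 0.24 at 94 dpc, and rose again in period III by 0.81 ± 0.18 (adjusted p = 0.00056). ITPR3, an inositol trisphosphate receptor, rose by 0.96 ± 0.17 (adjusted p = 9.2e-06). The phospholipases PLCD1 and PLCG1, which release inositol trisphosphate from membrane lipid, fell by 1.02 ± 0.16 (adjusted p = 1.5e-06) and 1.00 ± 0.09 (adjusted p = 2e-11). In period II, 7 of 15 rose and 2 fell (median 0.23), beside 32.2% and 35.7% of named genes, and the strongest fall was that of IMPA1, which frees inositol from the phosphate that ISYNA1 makes, by 1.22 ± 0.13 (adjusted p = 1.7e-09). The other gene that fell was PLCD1 (-0.46 ± 0.17, adjusted p = 0.016), while CDS2, which makes the lipid precursor of phosphatidylinositol, rose by 0.72 ± 0.11 (adjusted p = 1.3e-06) and the inositol phosphate kinase IP6K1 by 0.64 ± 0.19 (adjusted p = 0.0042). IP6K1 passed the filter only through 28 dpn, where it was higher, which favoured a rise. In period III, 3 of 15 rose and 3 fell (median -0.01), beside 17.5% and 28.3%.

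SSBP4, which encodes a single-stranded DNA binding protein and is adjacent to ISYNA1 in the annotation, was lower at each later stage too. It differed by -1.20 ± 0.16 (adjusted p = 5.9e-08), -0.91 ± 0.16 (adjusted p = 1.1e-05) and -0.40 ± 0.09 (adjusted p = 0.0011) in periods I to III by limma. FKBP8, 2 genes away on the other side, differed by -0.28 ± 0.15 and -0.27 ± 0.14 in periods I and II (adjusted p = 0.095 and 0.085) and by -0.57 ± 0.16 in period III (adjusted p = 0.0047). KXD1 next to it had 0.15 ± 0.08 (adjusted p = 0.13), 0.02 ± 0.09 (adjusted p = 0.88) and 0.23 ± 0.07 (adjusted p = 0.0091) in periods I to III. Beyond it C2H19orf60 had -0.22 ± 0.11 (adjusted p = 0.078) in period I and was higher at the later stage in periods II (0.74 ± 0.13, adjusted p = 6.8e-06) and III (0.61 ± 0.10, adjusted p = 1.4e-05), opposite to the direction of ISYNA1.

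S100G remained high into the first day after birth and was then lost from the array's range. Its probe set with the higher mean read 23258, 31020 and 45382 at 94 dpc and 2833, 17780 and 49236 at 1 dpn (lowest, median, highest). The newborns spread over 17.4-fold, and the fetuses over 1.95-fold. The newborn range reached from below the lowest fetus to above the highest, and the means of 14.02 ± 1.09 at 1 dpn and 14.98 ± 0.32 at 94 dpc (SD, n = 15 each) differed by -0.96 ± 0.28 (SE). At 28 dpn the probe set read 2.36, 15.4 and 737, and the mean of 5.71 ± 1.70 (n = 14) was near background. The difference between 28 and 1 dpn was -8.31 ± 0.50, at least 313-fold, without overlap. At 188 dpn it read 3.86, 19.2 and 218.

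A few older pigs had a clear S100G reading in this probe set. The Tag level was exceeded by 5 of 14 pigs at 28 dpn and by 3 of 16 at 188 dpn. At 28 dpn 3 of 14 pigs also exceeded the median of their array, with 737, 324 and 221, while the next read 54.2, and 1 of 16 pigs did so at 188 dpn (218). Their ISYNA1 read 713, 414 and 600, within the 347 to 866 of the stage, their TNNI2 read 14.0, 53.1 and 8.98, their AFP, the fetal albumin counterpart, read 45.3, 236 and 80.7, and their IGF2 read 2197, 2866 and 4600. In 3 pigs of 28 dpn without such a reading (S100G 54.2, 5.32 and 2.36), AFP read 248, 97.9 and 53.1 and IGF2 1275, 1917 and 1697. The arrays of the 3 pigs with the reading correlated with the others of the stage at a mean of 0.952, 0.947 and 0.948, within the stage's range of 0.938 to 0.957. In the other S100G probe set these pigs read 39.0, 49.4 and 68.9, within the 28.1 to 100.4 of the stage.

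The other S100G probe set was dim and showed the period II difference only. It read 105, 167 and 251 at 94 dpc, 101, 208 and 409 at 1 dpn, 28.1, 63.1 and 100.4 at 28 dpn and 25.1, 59.2 and 76.1 at 188 dpn. The 2 early stages overlapped entirely, with a difference of 0.15 ± 0.15, and 28 dpn lay below 1 dpn by 1.53 ± 0.16 without overlap. Over the 60 arrays the 2 probe sets correlated at r = 0.847, and with each stage's mean removed r was -0.078. The animal-to-animal differences in S100G were thus those of 1 probe set only.

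Other calcium handling genes and S100 relatives moved by far less at the step where S100G was lost. In period II, 5 of 11 tested genes of this list rose and 4 fell (median -0.26), beside 32.2% rising and 35.7% falling of all named genes. S100A4, an S100 protein of motile and stromal cells, rose by 2.33 ± 0.28 (adjusted p = 1.9e-08), to 8.18 ± 0.65 at 28 dpn, against a near-background 5.85 ± 0.93 at 1 dpn, and CYP27A1, a hydroxylase of bile acid and vitamin D metabolism, by 1.05 ± 0.10 (adjusted p = 1.7e-10). S100A4 passed the filter only through 28 dpn, the stage where it was higher, which favoured a rise. S100A9 of neutrophils fell by 1.64 ± 0.27 (adjusted p = 4.8e-06), and ATP2B1, a calcium pump of the plasma membrane, by 1.29 ± 0.16 (adjusted p = 4.3e-08). In period I, 4 of 11 rose, led by S100A14 (1.03 ± 0.22, adjusted p = 0.00013) and S100A11 (0.69 ± 0.12, adjusted p = 1.5e-05), and 5 fell, led by the neutrophil genes S100A9 (-1.21 ± 0.25, adjusted p = 7.1e-05) and S100A8 (-1.03 ± 0.21, adjusted p = 9.6e-05), with a median of -0.12. Of all named genes 29.8% rose and 35.6% fell in that period. In period III, 1 of 10 rose, again CYP27A1 (0.71 ± 0.08, adjusted p = 4e-08), and 3 fell, with S100A11 (-1.01 ± 0.14, adjusted p = 1.1e-06) and S100A14 (-0.40 ± 0.14, adjusted p = 0.018) by the most, beside 17.5% rising and 28.3% falling. TRPV6, the epithelial calcium channel that works beside S100G in the intestine, did not pass the filter, with levels of 5.84, 6.70, 6.07 and 6.05 at the 4 stages in order. Without the filter, limma called TRPV6 (-0.63 ± 0.22, adjusted p = 0.017) and S100A12 (-1.09 ± 0.23, adjusted p = 0.00028) lower in period II. The same held for CYP24A1 (-1.21 ± 0.23, adjusted p = 7.6e-05) and CYP27B1 (-0.80 ± 0.26, adjusted p = 0.012), both near background at 1 and 28 dpn. CALB2 and SLC8A1 were not called, beside 30.7% of all probe sets lower and 15.6% higher. The 4 intestinal epithelium markers on the array had a summed intensity with medians of 1445, 1017, 534 and 348 at the 4 stages, and their part in the S100G course was not tested. SYAP1, the gene next to S100G in the annotation, differed by -0.15 ± 0.09 (adjusted p = 0.16), -0.14 ± 0.10 (adjusted p = 0.23) and -0.22 ± 0.13 (adjusted p = 0.19) in periods I to III.

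The FNTA probe sets disagreed, and the course depends on which is read. The first, with the highest mean over the arrays, read 33892, 45973 and 65233 at 94 dpc and 34572, 42721 and 53720 at 1 dpn (lowest, median, highest), so that fetuses and newborns overlapped, with a difference of -0.22 ± 0.10. It read 5341, 12295 and 28805 at 28 dpn and 715, 1386 and 2781 at 188 dpn, and neither stage overlapped with any other. The stage means were 15.58 ± 0.29, 15.36 ± 0.19, 13.44 ± 0.66 and 10.41 ± 0.47 (SD, n = 15, 15, 14 and 16). The difference was -1.92 ± 0.18 (3.78-fold) between 28 and 1 dpn and -3.03 ± 0.20 (8.19-fold) between 188 and 28 dpn, and 36.0-fold between 188 dpn and 94 dpc. The largest step thus came after 28 dpn.

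The middle probe set, also annotated as FNTA, was nearly flat. It read 977, 1130 and 1334 at 94 dpc, 634, 1235 and 1621 at 1 dpn, 967, 1194 and 1468 at 28 dpn and 648, 795 and 1300 at 188 dpn. The stages overlapped throughout, with differences of 0.03 ± 0.10, 0.03 ± 0.10 and -0.50 ± 0.10 in periods I to III. Over the 60 arrays it correlated with the first at r = 0.521, and with stage means removed at r = -0.392. The third probe set was near background at all stages (means 5.46, 5.40, 4.98 and 5.34) and carries no level. The description of FNTA as a transcript of young liver rests on 1 of its 3 probe sets.

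**Figure D4:**
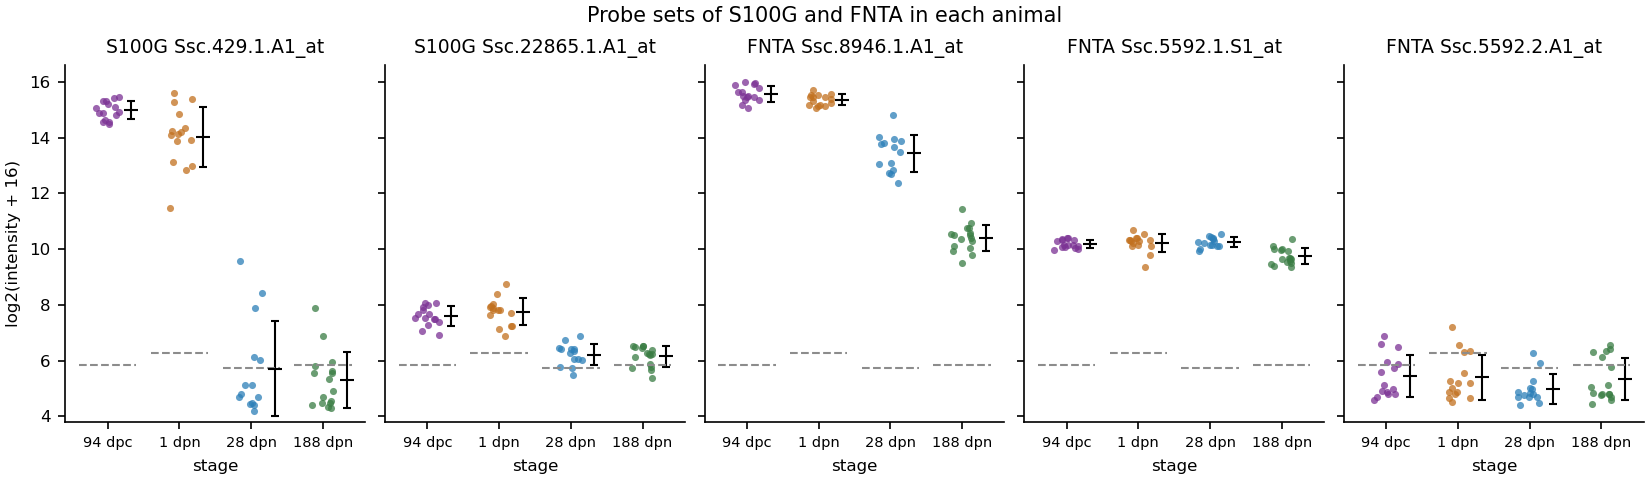
Level of the 2 probe sets of S100G and the 3 of FNTA, as log2(intensity + 16), in every animal by stage, with mean and SD in black and the highest Tag control mean as a dashed line. Panels run from the highest to the lowest mean within a gene, and the first FNTA probe set differs by 36.0-fold between 188 dpn and 94 dpc, whereas the middle one lies between 9.75 and 10.25 at all 4 stages on average.

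Among the prenylation enzymes and their substrates, falls outnumbered rises in period III. The first FNTA probe set had its largest step there (-3.03), against -0.50 for the middle one. Here 10 of 18 tested genes fell and 2 rose (median -0.29), beside 28.3% falling and 17.5% rising among all named genes. LMNB1, a farnesylated nuclear lamin, fell by 1.23 ± 0.14 (adjusted p = 4.1e-08), and DNAJA1, a farnesylated co-chaperone, by 0.90 ± 0.12 (adjusted p = 3e-07). RABGGTB, a subunit of the RAB-specific prenyltransferase, rose by 0.47 ± 0.13 (adjusted p = 0.0032). In period I, 3 of 18 rose and 8 fell (median -0.22), beside 29.8% and 35.6% of named genes. LMNA, which is farnesylated as a precursor, rose by 0.82 ± 0.07 (adjusted p = 3.1e-11) and the small GTPase RHEB by 0.55 ± 0.07 (adjusted p = 6.9e-08), whereas NAP1L1, a nucleosome assembly protein, fell by 1.25 ± 0.13 (adjusted p = 1e-09) and RABGGTB by 1.01 ± 0.12 (adjusted p = 1.4e-08). In period II, 5 of 18 rose and 6 fell (median -0.03), beside 32.2% and 35.7%, with CDC42 (0.66 ± 0.10, adjusted p = 1.1e-06) and NAP1L1 (0.57 ± 0.14, adjusted p = 0.00065) rising and RABGGTB (-0.93 ± 0.14, adjusted p = 1.6e-06) and RHEB (-0.87 ± 0.08, adjusted p = 2e-10) falling by the most. FNTB, the partner subunit of FNTA in farnesyltransferase, differed by 0.02 ± 0.09 (adjusted p = 0.85), -0.37 ± 0.10 (adjusted p = 0.0019) and -0.30 ± 0.09 (adjusted p = 0.0083) in periods I to III by limma. RNF170 and HGSNAT, the nearest genes on the array on either side of FNTA, differed in period III by -0.06 ± 0.11 (adjusted p = 0.70) and 0.12 ± 0.16 (adjusted p = 0.58).

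From animal to animal within a stage, some of the 6 genes varied together, although the level of the brightest other probe sets varied with them. In all, 61 relations between members, with marker lists and with control ratios were computed over 15 animals each, and 5 had an adjusted permutation p below 0.05. At 94 dpc S100G and ISYNA1 had Pearson's r = 0.768 (permutation p = 0.0005, adjusted p = 0.026) and Spearman's rho = 0.782 (permutation p = 0.001, adjusted p = 0.061), and r = 0.759 without the 2 animals farthest in S100G. The same 4 fetuses were lowest in both genes, at 23258 to 25172 for S100G and 24709 to 31897 for ISYNA1, against 28585 to 45382 and 36648 to 44504 in the other 11. Within those 11, r was 0.317 (permutation p = 0.34) and rho 0.482 (permutation p = 0.14). The 4 were picked by the genes themselves and leaving them out narrows the range, so the drop cannot show how far the relation rests on them. ISYNA1 and FNTA had r = 0.735 (permutation p = 0.0012, adjusted p = 0.026) and rho = 0.704 (permutation p = 0.0044, adjusted p = 0.09) at 94 dpc, which was 0.483 without the 2 farthest animals.

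These bright probe sets also followed the mean of the 100 other brightest named probe sets of the array, an index added after the first relations were seen. At 94 dpc FNTA followed it with r = 0.943 and rho = 0.914 (permutation p = 1e-05 for both, the smallest possible, and adjusted p = 3e-05 and 6e-05 over 6 relations), and at 1 dpn with r = 0.908 and rho = 0.918 (permutation p = 1e-05 and 2e-05). Without the 2 farthest animals r was 0.960 and 0.893. ISYNA1 had r = 0.675 (permutation p = 0.0051) and rho = 0.725 (permutation p = 0.003) with it at 94 dpc, and S100G r = 0.617 (permutation p = 0.016) and rho = 0.621 (permutation p = 0.015). After quantile normalization, which gives all arrays the same distribution, r at 94 dpc was 0.438 for S100G with ISYNA1 (permutation p = 0.10) and 0.252 for ISYNA1 with FNTA (permutation p = 0.37). With the bright index r then was 0.103 for FNTA (permutation p = 0.71), -0.594 for ISYNA1 (permutation p = 0.021) and -0.087 for S100G (permutation p = 0.76).

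At 1 dpn S100G and ISYNA1 again varied together, over a far wider range. Here r was 0.736 (permutation p = 0.0017, adjusted p = 0.026) and rho 0.636 (permutation p = 0.012, adjusted p = 0.19). Without the 2 animals farthest in S100G r was 0.567 (permutation p = 0.043, adjusted p = 0.44). Quantile normalization left r at 0.724 (permutation p = 0.0023, adjusted p = 0.07). The lowest newborn of both genes was the same animal, with 2833 for S100G and 872 for ISYNA1, and the 2 highest were shared too, with 49236 and 43001 for S100G and 9279 and 17072 for ISYNA1. The bright index related to S100G with r = 0.420 (permutation p = 0.12; rho = 0.375, permutation p = 0.17) and to ISYNA1 with r = 0.510 (permutation p = 0.052; rho = 0.454, permutation p = 0.091) at this stage.

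**Figure D5:**
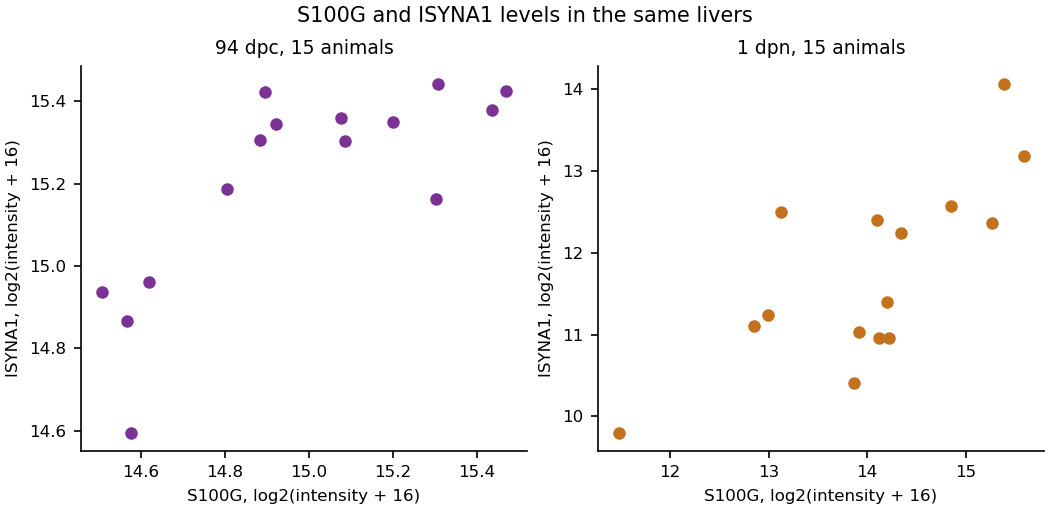
ISYNA1 level (y) against S100G level (x), both as log2(intensity + 16), in the 15 fetuses of 94 dpc (left) and the 15 newborns of 1 dpn (right); each point is an animal. The axes differ between panels, and the newborns cover a 17.4-fold range of S100G and a 19.6-fold range of ISYNA1 against 1.95-fold and 1.80-fold in the fetuses.

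CST6 followed the erythroid markers among fetuses, in a relation called by Pearson's r under the main setting only. Its r with the mean of the 8 erythroid markers at 94 dpc was 0.785 (permutation p = 0.0017, adjusted p = 0.026), its rho 0.568 (permutation p = 0.03, adjusted p = 0.26), and r was 0.468 (permutation p = 0.11) without the 2 animals farthest in the markers. Leaving out the animals farthest in the markers narrows the range, so the drop cannot show how far the relation rests on them. With quantile normalization r was 0.767 (permutation p = 0.0023, adjusted p = 0.07). The actin ratio also went with CST6 among fetuses (r = 0.595, permutation p = 0.022, adjusted p = 0.19; rho = 0.729, permutation p = 0.0028, adjusted p = 0.084), and its part was not tested. The last of the 5 called relations was that of TNNI2 with the erythroid mean at 1 dpn. It had r = 0.700 (permutation p = 0.0037, adjusted p = 0.045) and rho = 0.579 (permutation p = 0.027, adjusted p = 0.26). In 8 of these newborns TNNI2 lay below the Tag level, where differences between animals carry no level. The relation cannot be tested within 7 or 8 animals chosen by TNNI2 itself. With FECH, the heme-forming ferrochelatase, PSP-II had r = 0.941 over the 60 arrays. Within the stages in order this r was -0.436, -0.238, 0.577 and -0.421, with no test. FECH averaged 13.05 at 94 dpc and 10.97, 10.94 and 11.01 after birth, a far smaller difference than that of PSP-II. CST6 with FECH had r = 0.836 within the fetuses and 0.061, 0.359 and 0.000 at 1, 28 and 188 dpn, also untested.

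The genes with the most similar profile over the 60 arrays, which share stages and array scaling, differed between members. PSP-II was closest to LOC100516606 (r = 0.949), RHCE (0.941) and FECH (0.941), the last 2 being erythroid genes, and TNNI2 to RHCE (0.927), DUSP9 (0.905) and NACA (0.903). CST6 was closest to PSP-II (0.867), FECH (0.862) and SPINK4 (0.860), a gut protease inhibitor that averaged 5.77 at 1 dpn and 8.86 at 94 dpc. ISYNA1 was closest to BEX3 (0.978), CELF4 (0.964) and ACSL4 (0.948). S100G was closest to the fetal genes IGF2 (0.975) and AFP (0.960) and to HNRNPR (0.955), and FNTA by its first probe set to SNRPN (0.954), ALDH18A1 (0.953) and SLC25A33 (0.941). The flat FNTA probe set was closest to PSMA6, a proteasome subunit gene (0.771).

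With stage means removed, ISYNA1 still had close companions, namely RAB34 (r = 0.788), EXOSC5 (0.736) and MIF (0.697). BEX3 followed ISYNA1 within the fetuses (0.873), the newborns (0.623) and the pigs of 188 dpn (0.662), but hardly at 28 dpn (0.166). For S100G the closest was CYP27A1 (0.540), for TNNI2 PLP2 (0.505), for CST6 NCAPH2 (0.459) and for PSP-II RPL6 (0.514), all weak. FNTA by its first probe set came closest to EGLN2 (0.622), IMP4 (0.602) and GAPDH (0.548), and by the flat one to NIFK (0.730), NGDN (0.681) and SMN1 (0.673), without any gene in common.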

How the data were processed

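Liver RNA of 60 AP offspring (15, 15, 14 and 16 animals at 94 dpc, 1, 28 and 188 dpn) was hybridised to Affymetrix GeneChip Porcine Genome arrays as biotin-labelled cRNA. The deposited values are 1 linear intensity per probe set and array, made by the authors with GCOS 1.1.1 per the submitters' processing notes. Arrays had been scaled, with a mean of 500.1 to 500.2 after trimming 2% at each end. Arrays had passed the authors' quality control. The study's own tests used GCRMA values, which were not used here. Of 24123 probe sets, 124 controls were left out; 10069 have a single symbol, 198 several and 13732 none in the platform annotation, and 9961 of the single ones have a gene ID in RefSeq. Probes of 1 gene were kept apart for the members, and other genes were read by the probe set with the highest mean.

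Adjacent stages were compared with limma 3.58.1 (lmFit, eBayes; R 4.3.3) on log2(intensity + 16) among probe sets above the array median in at least 50% of the animals of 1 stage, with Benjamini-Hochberg adjustment over all probe sets of the period and a threshold of 0.05. A probe set bright at only 1 of the 2 stages can thus pass, which favours a call toward that stage. Litter, sex and weight, terms of the study's model, are not in the labels. The fit was tested on simulated data. Correlations used permutation tests (two-sided, 100000 resamples; Python 3.11.15, numpy 2.4.6, scipy 1.17.1). Figures were drawn with matplotlib 3.10.9. The number of arrays limits the precision.

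Members, gene lists and marker lists were chosen with earlier results of these data known. Named were the members; per list and period up to 2 genes that rose and 2 that fell by the most; per member the 3 genes with the highest r, with and without stage means; and its annotated neighbours on the array. TRPV6, the other calcium genes fitted without the filter, FNTB, the troponin partners and the fast myosin genes were named after their values were seen. So were the muscle genes called without the filter and the remaining seminal plasma genes. Alternatives were other pseudocounts, normalizations, filters, fits, left-out arrays and an actin covariate. Annotated coordinates served only to order genes along a chromosome for the neighbours, and sequences were not used.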

Additional observations from a re-analysis of the deposited data

How the results depend on the processing

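Every member difference of over 0.36 on the log2 scale in size kept its sign with a pseudocount of 1 or 64, quantile normalization, median centring, all stages in 1 fit, the least correlated array of each stage left out, or the actin ratio as covariate. Signs turned only among smaller differences, and the first FNTA probe set (0.06 between 1 dpn and 94 dpc with quantile normalization, -0.22 otherwise) and PSP-II (-0.06 between 28 and 1 dpn without the least correlated arrays and -0.01 with the actin covariate, 0.07 otherwise) are examples. Of all these values 185 moved by less than the spread between animals and 4 by more. With a pseudocount of 64 the difference between 1 dpn and 94 dpc was -5.48 for PSP-II (-6.25 with 16) and -2.64 for CST6 (-3.66 with 16), because the added constant shrinks dim levels. The count of probe sets higher at 28 than at 1 dpn was 3697, but 5932 with median centring and 1366 with the actin covariate, and that of lower ones was 5065, but 3064 and 1707. Array medians were lower at 28 dpn, which median centring removes, and counts of rises and falls in the lists of period II are relative to the scaling used. Of the counts in the lists, 44 moved by over 1.5 times and 316 did not. The relations of FNTA, ISYNA1 and S100G to the mean of the brightest probe sets and the relations at 1 dpn were added after seeing the data. None of the 5 called relations, 3 of them at 94 dpc, had an adjusted p below 0.05 under Spearman's rho, without the 2 farthest animals or under quantile normalization. For S100G with ISYNA1 at 94 dpc the size was 0.782, 0.759 and 0.438 under these, against r = 0.768. Of these 3 alternatives only quantile normalization made it clearly smaller. Without the 4 fetuses lowest in both genes r was 0.317 (n = 11). For ISYNA1 with FNTA at 94 dpc the size under the 3 alternatives was 0.704, 0.483 and 0.252, against r = 0.735. For CST6 with the erythroid markers at 94 dpc it was 0.568, 0.468 and 0.767, against r = 0.785.

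No paired analysis was possible because the labels give no number that sibs or litters share across stages, and replicate numbers follow accession order. Where the later stage mean was at or below the Tag level, as for PSP-II and CST6 at 1 dpn and for TNNI2 and S100G at 28 dpn, the fold is only a lower bound.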
